A study of Mus musculus with 28 samples.

Results

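The data described here were the RNA levels of 35 cell proliferation genes in the mouse pituitary gland, read gene by gene from whole glands. The members were a fixed list by function: 2 chromosome markers of cycling cells, 6 cyclins with their kinase, 8 mitotic kinases, checkpoint proteins and subunits of the anaphase-promoting complex pathway, 8 spindle, motor and kinetochore proteins, 9 S phase proteins and 2 transcription factors. All 35 were among the 32594 genes of the count table, and all 35 passed the filter on low counts in every model. For the descriptions, 22 members were grouped as mitosis genes (the cycling markers, Cdk1 with cyclins A and B, the kinases and checkpoint genes, and the spindle genes) and 9 as S phase genes, while Ccne1, Ccne2, Foxm1 and E2f1 stood alone.

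C57BL/6J mice of both sexes, 8 weeks old, were left in the home cage without restraint (control; 4 females and 4 males), restrained for 20 min (restraint; 4 females and 2 males), kept through 12 h of paradoxical sleep deprivation (PSD; 4 females and 3 males), or given PSD and then restraint (PSD+restraint; 4 females and 3 males). PSD puts mice on small columns standing in water, and a mouse that goes limp in rapid eye movement sleep touches the water and wakes. All mice, controls included, had been adapted to this procedure in short daily sessions beforehand. Tissue was taken 18 h after the end of PSD, and in restrained mice 10 min after the end of restraint. Single mice are named by their labels, which begin with PHN for control, PHR for restraint, PPN for PSD and PPR for PSD+restraint and end in f or m for the sex. Mice were deprived together with their cage mates, and the labels do not tie a mouse to its tank, so effects of a shared tank and of PSD cannot be told apart. Mice were housed by sex and the labels do not name the cage, so effects of cage and of sex cannot be told apart either. By the study's methods each library was made from a whole pituitary gland. Posterior lobe markers were nearly absent from 1 library, as given below, so not every library held the lobes in like parts. In such bulk RNA fewer cycling cells and less of a transcript in each cycling cell cannot be told apart.

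The cell cycle is driven by cyclins that switch on kinases in turn. Cyclin E carries a cell into S phase, in which the Mcm2 to Mcm7 helicase opens the DNA, Pcna clamps the polymerases to it, and Rrm2 and Tyms supply nucleotides. Cyclins A and B with Cdk1 then drive mitosis, in which Aurora and Polo kinases, kinesins and kinetochore proteins separate the chromosomes under the watch of the Bub checkpoint, and Cdc20 with Ube2c lets the anaphase-promoting complex destroy the cyclins. E2F factors switch on the S phase genes, whereas mitosis genes are held off in resting cells by a complex that binds the cell cycle homology region (CHR), often beside CCAAT boxes, and are switched on through the same element with Foxm1. Few cells of the adult pituitary divide: some are Sox2-positive stem cells and some already make hormones, and lactotropes can multiply in response to oestrogen. Licensing proteins such as the Mcm helicase outlast the division itself, but the data here are RNA levels only.

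Library totals ran from 14024465 to 52948531 counts with a median of 33389717, and the ranges of females and males overlapped. Hormone markers were abundant in all 28 libraries. The library of male control mouse PHN-101m stood apart with 5.05 CPM (counts scaled to a common library size) summed over 6 posterior lobe markers and 11744 CPM over 5 corticotrope and melanotrope markers, the lowest of all 28 for both, and that of female PSD mouse PPN-101f with the highest sum of 6 forebrain markers, 549 CPM. Calls that were lost without both are named where they occur. The labels name no batch, and each library is a different mouse.

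Mitosis and S phase members differed in the motifs they carry, and a link of motifs to RNA levels was not tested. The promoters of the members that the results turn on are shown first. Each runs from 250 bases before to 50 bases after the RefSeq start (build GRCm38.p6), 5′ to 3′ on the gene's strand. Capitals mark matches on either strand to a CHR word (the word TTTGAA or the word TTTAAA), to the box CCAAT, and to an E2F word (the word TTCCCGC, or instead TTCGCGC, or the form TTGCCGC, or the form TTGGCGC). Matches that share letters were both counted, as in the last run of capitals of Mcm7, which holds a pair of overlapping E2F words and a CCAAT. Mki67, Cdk1 and Ccnb1 are examples of mitosis members that were lower in females. Rrm2 was the S phase member that was lower in females and higher after PSD, and Bub1b and Mcm7 were called after PSD+restraint.
Mki67, chr7:135716330-135716629, strand -: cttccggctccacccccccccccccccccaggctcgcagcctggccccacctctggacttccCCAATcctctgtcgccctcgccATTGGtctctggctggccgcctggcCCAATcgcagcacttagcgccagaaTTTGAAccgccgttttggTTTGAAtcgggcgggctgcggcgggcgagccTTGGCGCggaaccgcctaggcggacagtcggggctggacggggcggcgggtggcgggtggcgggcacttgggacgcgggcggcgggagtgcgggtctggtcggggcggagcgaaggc
Cdk1, chr10:69352863-69353162, strand -: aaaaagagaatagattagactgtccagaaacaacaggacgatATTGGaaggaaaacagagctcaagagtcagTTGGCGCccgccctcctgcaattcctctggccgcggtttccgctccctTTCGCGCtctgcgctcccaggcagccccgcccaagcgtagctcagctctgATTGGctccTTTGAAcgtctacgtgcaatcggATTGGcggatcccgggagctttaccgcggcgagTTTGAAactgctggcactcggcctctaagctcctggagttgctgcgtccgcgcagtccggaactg
Ccnb1, chr13:100786437-100786736, strand -: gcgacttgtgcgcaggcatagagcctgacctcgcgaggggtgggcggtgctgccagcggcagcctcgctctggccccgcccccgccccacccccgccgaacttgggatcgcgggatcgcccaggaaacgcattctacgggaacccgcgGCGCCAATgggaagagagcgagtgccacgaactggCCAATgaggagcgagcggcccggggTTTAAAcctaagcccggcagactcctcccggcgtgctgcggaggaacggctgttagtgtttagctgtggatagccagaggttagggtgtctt
Rrm2, chr12:24708004-24708303, strand +: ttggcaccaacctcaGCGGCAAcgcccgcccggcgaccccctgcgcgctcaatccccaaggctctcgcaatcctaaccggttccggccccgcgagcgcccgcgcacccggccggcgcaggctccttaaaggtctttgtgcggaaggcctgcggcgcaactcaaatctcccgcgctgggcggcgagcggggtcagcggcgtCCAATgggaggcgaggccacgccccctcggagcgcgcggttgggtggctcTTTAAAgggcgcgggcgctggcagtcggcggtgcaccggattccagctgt
Bub1b, chr2:118597961-118598260, strand +: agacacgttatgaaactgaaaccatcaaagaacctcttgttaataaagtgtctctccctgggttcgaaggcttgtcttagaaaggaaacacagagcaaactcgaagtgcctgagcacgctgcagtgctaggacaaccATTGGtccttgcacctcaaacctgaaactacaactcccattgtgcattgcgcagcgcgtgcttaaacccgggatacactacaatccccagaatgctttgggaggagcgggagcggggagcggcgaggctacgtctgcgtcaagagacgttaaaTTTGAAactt
Mcm7, chr5:138171834-138172133, strand -: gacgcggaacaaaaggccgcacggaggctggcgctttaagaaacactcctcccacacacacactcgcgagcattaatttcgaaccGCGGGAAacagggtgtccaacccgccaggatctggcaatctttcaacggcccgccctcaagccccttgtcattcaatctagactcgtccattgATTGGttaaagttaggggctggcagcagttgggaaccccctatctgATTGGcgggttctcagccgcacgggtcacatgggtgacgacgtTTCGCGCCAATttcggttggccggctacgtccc

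Of the 35 members, 28 had a promoter in the table used. A CHR word was present in 16 of 18 mitosis promoters (88.9%), in 3 of 8 S phase promoters (37.5%) and in 27.6% of all 32851 promoters of the same length. CCAAT was present in 15 of the 18 (83.3%) and 7 of the 8 (87.5%), beside 37.4% of all promoters, and both motifs together in 14 of the 18 (77.8%) beside 10.7%. An E2F word was present in 5 of the 8 S phase promoters (62.5%) and in 3 of the 18 mitosis promoters (16.7%), beside 9.57% of all promoters. Mki67, Cdk1 and Ccnb1 were the 3 mitosis members that carried all 3 motifs, so the mitosis promoters shown are not typical of the 18. Nusap1, which was also lower in females, carried none of the motifs. Rrm2 carried 1 match to each, with the CHR word at the start site, whereas the Mcm7 promoter shown carried 3 E2F words, 3 CCAAT and no CHR word. Mcm7 and Prc1 each had 2 promoters listed, of which only the first was read. Bub1b carried 1 CHR word after the start and 1 CCAAT. These matches are letters in a window and not measured binding.

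Levels between genes were compared per length, as CPM per kilobase of mean transcript length (RPKM). On that scale S phase members were the most abundant. Pcna, the polymerase clamp, led at 34.4 ± 3.21 RPKM (SD, n = 28), followed by Mcm7 at 21.9 ± 2.67, Mcm2 at 21.1 ± 2.11 and Mcm4 at 16.2 ± 1.31. The ranges of Mcm7 and Mcm2 over the mice overlapped, as did those of Mcm5 (5.05 ± 0.566) and Tyms (4.43 ± 0.465). Differences between genes within the same mouse were not tested. The first 7 places were all held by S phase genes, and only Mcm3 (2.42 ± 0.351) and Rrm2 (1.24 ± 0.610) fell among the others. Mitosis members had medians of 0.832 RPKM for the 8 kinases and checkpoint genes and 0.911 for the 8 spindle genes. Bub1b, a spindle checkpoint kinase, was the exception in its class at 4.14 ± 1.07 RPKM, whereas Bub1, its relative in the same checkpoint, was at 0.393 ± 0.245. The lowest levels were those of Kif2c, a microtubule-depolymerising kinesin, at 0.330 ± 0.170, and Ccnb1 at 0.344 ± 0.173. Those genes rest on few reads: the lowest count in any mouse was 3 for Kif2c, 3 for Ccnb1 and 2 for Bub1, so single-mouse values of these genes carry a large counting error. 

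Exons of 9 members overlap a gene on the opposite strand (among them Mcm7 with Cops6 and Ap4m1, Cdc20 with Elovl1, Ube2c with Tnnc2 and Ccna2 with Exosc9). The library kit keeps strand, but the strand setting of the counting is not given in the sources used here, so reads of these pairs may not have been told apart. Mcm7 also hosts Mir25 and Mir93 on its own strand.

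Mitosis members tended to be high or low together in the same mice, while the summed level of S phase members varied little. The CPM summed over the 22 mitosis genes was 40.02 ± 6.85 (SD, n = 4) in female controls, 40.03 ± 11.3 after restraint (n = 4), 47.03 ± 7.73 after PSD (n = 4) and 44.8 ± 11.6 after PSD+restraint (n = 4). In males it was 50.4 ± 1.499 (n = 4), 54.5 ± 3.44 (n = 2), 62.3 ± 16.2 (n = 3) and 66.2 ± 15.7 (n = 3). The lowest mouse was female control PHN-101f at 30.6 CPM and the highest male PSD+restraint PPR-102m at 81.9 CPM. Across all 28 mice the sum of the 9 S phase genes stayed between 135 and 159 CPM, with group means from 140 ± 1.44 (female PSD+restraint) to 154 ± 3.71 (male PSD).

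**Figure D1:**
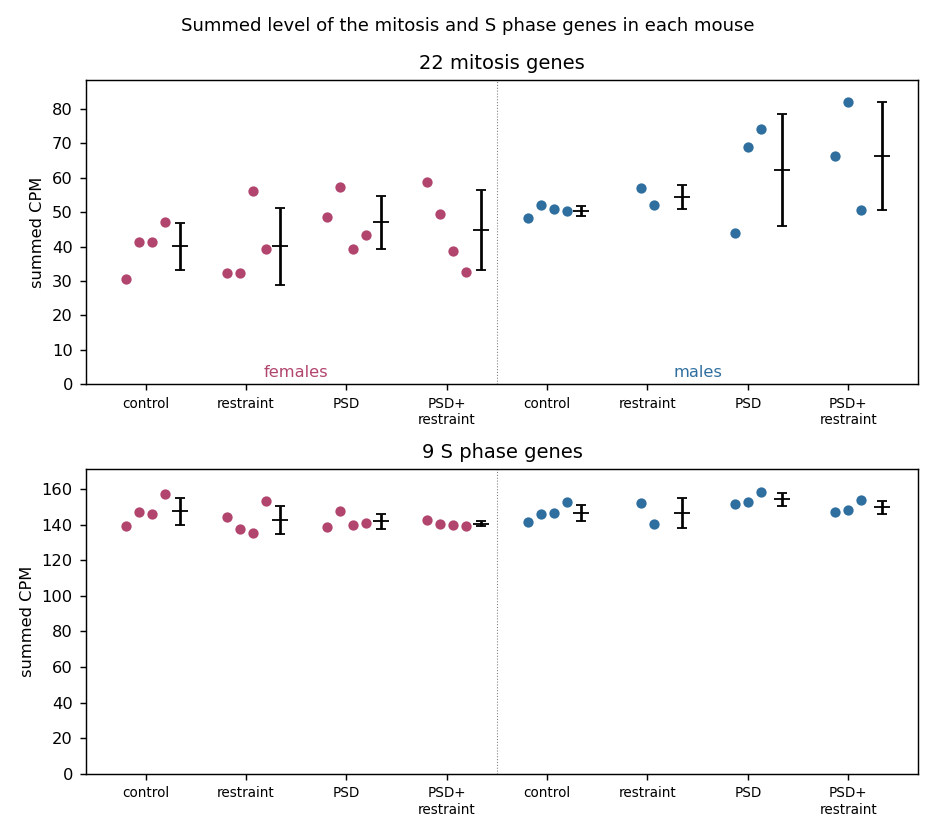
Summed CPM of the 22 mitosis genes (upper panel) and of the 9 S phase genes (lower panel) in each of the 28 mice, by treatment group (females left, males right); points are mice, and the bar beside them is the mean ± SD. Mitosis sums ran from 30.6 to 81.9 CPM and spread widely within the PSD and PSD+restraint groups of males, while S phase sums stayed between 135 and 159 CPM.

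Within a group, the same mice stood at the extremes for most mitosis members. PHN-101f was the lowest of the female controls for 18 of 22 mitosis members and PPN-101m of the male PSD mice for 21 of 22. PHR-103f was the highest of its group for 17 members, PPN-102f for 15, PPR-101f for 16, PPN-103m for 15 and PPR-102m for 17. Male controls were the exception: their sums lay between 48.4 and 51.9 CPM, and no mouse was highest for more than 9 of the 22. Genes of 1 library share its depth and its normalisation, and no p was computed for this pattern.

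**Figure D2:**
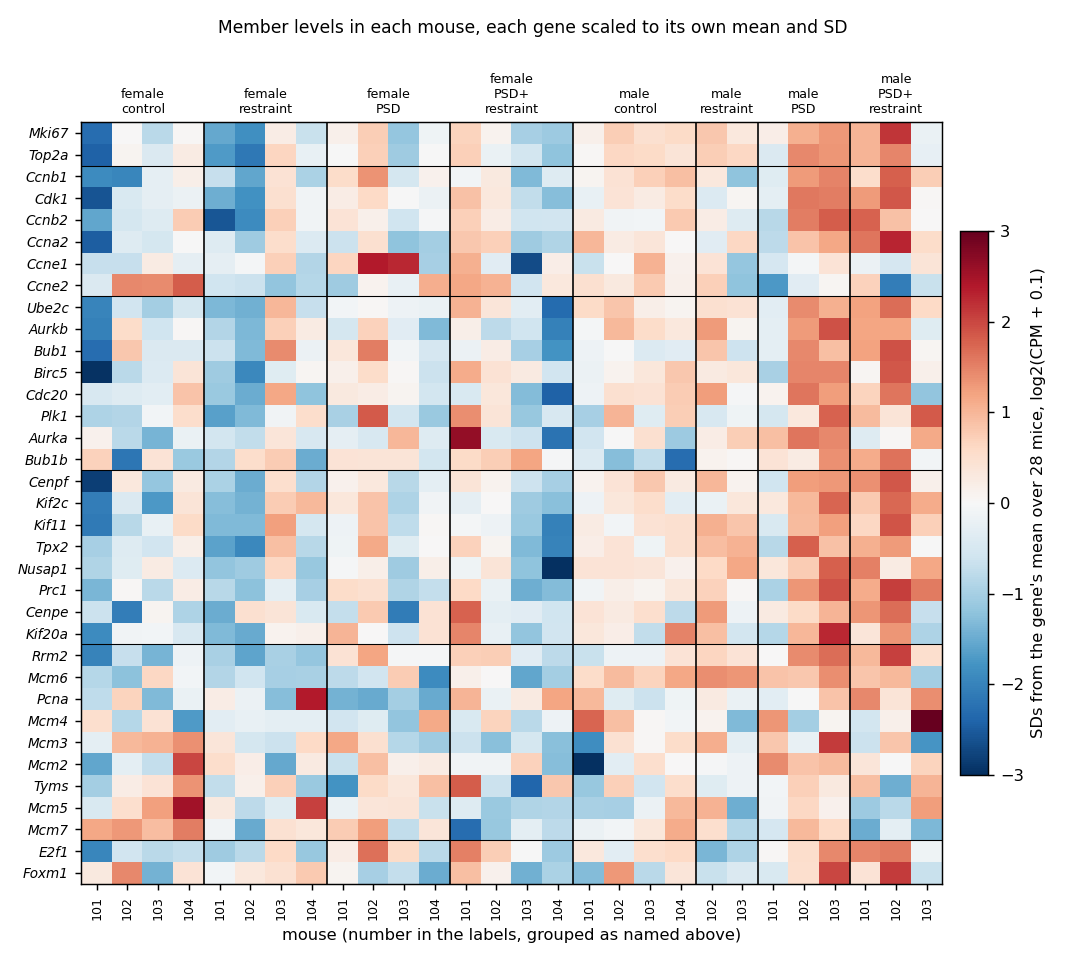
Level of the 35 members (rows, by role) in each of the 28 mice (columns, by group), as log2(CPM + 0.1) in SDs from the gene's own mean, with colours limited at 3 SDs. Some columns have 1 colour across the mitosis rows, such as the low female control PHN-101f and the high male PSD+restraint PPR-102m. In those mice the mitosis genes were low or high together. The Mcm rows follow them only in part: in PHN-101f Mcm2, Mcm3 and Mcm5 were the lowest of the female controls and Mcm4 the highest.

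Mki67, which encodes the Ki-67 antigen of cycling cells, is taken first. In females, Mki67 was at 1.38, 4.34, 2.88 and 4.36 CPM in controls, 2.02, 1.73, 4.804 and 3.09 after restraint, 4.62, 6.17, 2.44 and 4.04 after PSD and 5.96, 4.54, 2.62 and 2.51 after PSD+restraint. In males, Mki67 was at 4.65, 6.15, 5.47 and 5.69 CPM in controls, 6.4 and 5.01 after restraint, 4.75, 7.24 and 8.102 after PSD and 7.07, 12.2 and 3.91 after PSD+restraint. Control males lay above control females without overlap, and the highest value of the series, 12.2, was that of PPR-102m. In females, Top2a was at 1.24, 4.12, 3.25 and 4.45 CPM in controls, 1.77, 1.42, 5.36 and 3.56 after restraint, 3.95, 5.57, 2.39 and 3.94 after PSD and 5.52, 3.61, 3.05 and 2.24 after PSD+restraint. In males, Top2a was at 4.01, 5.31, 5.22 and 4.78 CPM in controls, 5.61 and 5.33 after restraint, 3.23, 7.77 and 7.36 after PSD and 6.36, 7.82 and 3.53 after PSD+restraint. Top2a, the topoisomerase that untangles chromosomes, was low in the same females as Mki67 (PHN-101f, PHR-101f and PHR-102f).

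Cdk1 is the kinase that drives mitosis. In females, Cdk1 was at 0.412, 1.18, 1.28 and 1.34 CPM in controls, 0.726, 0.6099, 1.82 and 1.39 after restraint, 1.61, 1.91, 1.44 and 1.35 after PSD and 2.16, 1.68, 1.04 and 0.801 after PSD+restraint. In males, Cdk1 was at 1.32, 1.75, 1.63 and 1.87 CPM in controls, 1.204 and 1.501 after restraint, 1.27, 2.98 and 2.897 after PSD and 2.59, 3.37 and 1.49 after PSD+restraint. All female PSD mice lay above all female controls, with the nearest values at 1.35 and 1.34. In females, Ccnb1 was at 0.144, 0.136, 0.399 and 0.513 CPM in controls, 0.314, 0.183, 0.584 and 0.271 after restraint, 0.623, 0.928, 0.348 and 0.499 after PSD and 0.447, 0.541, 0.213 and 0.374 after PSD+restraint. In males, Ccnb1 was at 0.488, 0.584, 0.675 and 0.744 CPM in controls, 0.551 and 0.231 after restraint, 0.3799, 0.894 and 1.0 after PSD and 0.618, 1.16 and 0.682 after PSD+restraint. Ccnb1, the cyclin that activates Cdk1, overlapped with the controls of the same sex after every treatment.

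Pcna was not the lowest of the female controls in PHN-101f, and in PPR-102m it was the lowest of its group. Mcm5 was the lowest of the female controls in PHN-101f and the highest in PHN-104f, as the mitosis sum was. In PPR-102m, Mcm5 lay between the others of its group. Female controls also ranked in the same order by the S phase sum as by the mitosis sum, but only with TMM scaling. Scaled by library size alone, the S phase sums of PHN-101f to PHN-104f were 142.3, 141.0, 146.3 and 143.9 CPM. Their mitosis sums were then 31.2, 39.5, 41.3 and 43.0 CPM, a different order. Rrm2, an S phase gene of low level, was lowest of all 28 in PHN-101f and highest in PPR-102m, as its values further on show. In females, Pcna was at 28.8, 32.8, 27.3 and 30.3 CPM in controls, 31.5, 30.4, 27.4 and 38.4 after restraint, 27.1, 26.9, 28.1 and 26.9 after PSD and 33.9, 30.3, 31.6 and 34.4 after PSD+restraint. In males, Pcna was at 33.8, 29.9, 29.1 and 30.5 CPM in controls, 31.7 and 30.3 after restraint, 29.98, 30.8 and 33.4 after PSD and 35.3, 31.98 and 35.1 after PSD+restraint. The highest Pcna value was that of PHR-104f, and all female PSD mice lay below all female PSD+restraint mice. In females, Mcm5 was at 9.56, 10.6, 11.5 and 13.1 CPM in controls, 10.3, 9.21, 9.64 and 12.5 after restraint, 9.82, 10.4, 10.4 and 9.34 after PSD and 9.62, 8.903, 9.11 and 9.13 after PSD+restraint. In males, Mcm5 was at 9.04, 9.01, 9.83 and 11.1 CPM in controls, 11.2 and 8.57 after restraint, 9.91, 10.7 and 10.2 after PSD and 8.92, 9.2 and 11.5 after PSD+restraint. Mcm5, a subunit of the replicative helicase, ranged only from 8.57 to 13.1 CPM over all mice, and the highest value was that of PHN-104f.

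Ccne1, which carries cells into S phase, followed the mitosis genes in part. It was the highest of its group in PHR-103f, PPN-102f, PPR-101f and PPN-103m, but the lowest of its group in PPR-102m. In females, Ccne1 was at 2.95, 2.94, 3.45 and 3.17 CPM in controls, 3.16, 3.27, 3.73 and 2.85 after restraint, 3.69, 4.91, 4.83 and 2.796 after PSD and 3.95, 3.13, 2.102 and 3.42 after PSD+restraint. In males, Ccne1 was at 2.95, 3.31, 3.94 and 3.39 CPM in controls, 3.54 and 2.72 after restraint, 3.04, 3.28 and 3.54 after PSD and 3.21, 3.04 and 3.53 after PSD+restraint. Its highest values were those of PPN-102f and PPN-103f. In females, E2f1 was at 2.68, 3.66, 3.48 and 3.54 CPM in controls, 3.28, 3.48, 4.74 and 3.22 after restraint, 4.36, 6.005, 4.73 and 3.47 after PSD and 5.81, 4.89, 4.14 and 3.26 after PSD+restraint. In males, E2f1 was at 4.46, 3.87, 4.65 and 4.75 CPM in controls, 3.06 and 3.37 after restraint, 4.18, 4.67 and 5.72 after PSD and 5.74, 5.87 and 4.03 after PSD+restraint. E2f1, which switches on S phase genes, was lower in every female control than in every male control.

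Sex gave the main difference. In the model of all 28 mice with sex, PSD, restraint and their interaction, 17 of 35 members (48.6%) were called (adjusted p no higher than 0.05 with a log2 fold change of 0.32 or more in either direction), and all 17 were lower in females. Of all 18936 genes tested 14.9% were called, 7.79% lower and 7.11% higher in females. The log2 fold change was negative for all 22 mitosis members, with a median of -0.46, and for 7 of 9 S phase members, with a median of -0.04, beside a median of 0.01 over all genes. Of the called members 16 were mitosis genes, and the only S phase gene among them was Rrm2. No member's values were fully apart between the sexes, beside 2.08% of all genes.

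Both cycling markers, and 4 of the 6 cyclin and kinase genes, were lower in females. Mki67 ran from 1.38 through a median of 3.56 to 6.17 CPM in the 16 females and from 3.91 through 5.92 to 12.2 CPM in the 12 males, a log2 fold change of -0.85 (SE 0.19, adjusted p = 0.000975). Top2a ran from 1.24 through a median of 3.59 to 5.57 CPM in the 16 females and from 3.23 through 5.32 to 7.82 CPM in the 12 males, with -0.70 (SE 0.20, adjusted p = 0.00733). For Cdk1 the range was from 0.412 through a median of 1.34 to 2.16 CPM in the 16 females and from 1.204 through 1.69 to 3.37 CPM in the 12 males, with -0.63 (SE 0.19, adjusted p = 0.012). Most females lay below the male median for these 3 genes, within overlapping ranges. Ccna2, the cyclin of late S phase and early mitosis, ran from 2.37 through a median of 3.78 to 5.07 CPM in the 16 females and from 3.51 through 4.81 to 7.06 CPM in the 12 males, with -0.37 (SE 0.10, adjusted p = 0.00488). Ccnb1 ran from 0.136 through a median of 0.386 to 0.928 CPM in the 16 females and from 0.231 through 0.646 to 1.16 CPM in the 12 males, with -0.70 (SE 0.23, adjusted p = 0.0193). Ccnb2, the other B cyclin, gave -0.43 (SE 0.17, adjusted p = 0.0487), a call that was lost without any 1 of 18 of the 28 mice (adjusted p up to 0.0967), with DESeq2 size factors (0.0512), with no filter on low counts (0.0601) and without both libraries that stood apart (0.0563). By contrast the E cyclins did not pass the test: Ccne1 ran from 2.102 through a median of 3.22 to 4.91 CPM in the 16 females and from 2.72 through 3.295 to 3.94 CPM in the 12 males, with 0.04 (SE 0.09, adjusted p = 0.805), and Ccne2 gave 0.10 (SE 0.07, adjusted p = 0.295).

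Among the kinases, checkpoint and degradation genes, 4 of 8 were lower in females. Ube2c, which tags cyclins for destruction, ran from 0.267 through a median of 0.782 to 1.64 CPM in the 16 females and from 0.823 through 1.298 to 2.21 CPM in the 12 males, with -0.84 (SE 0.20, adjusted p = 0.00168). Aurkb, the kinase of the chromosomal passenger complex, ran from 0.267 through a median of 0.462 to 0.714 CPM in the 16 females and from 0.496 through 0.727 to 1.05 CPM in the 12 males, with -0.60 (SE 0.16, adjusted p = 0.00461). Birc5, its partner survivin, gave -0.48 (SE 0.18, adjusted p = 0.034), and Cdc20, the activator of the anaphase-promoting complex, -0.43 (SE 0.14, adjusted p = 0.0212), calls that were lost without any 1 of 7 and of 2 mice. Bub1 had a difference of similar size with a wide error, -0.56 (SE 0.31, adjusted p = 0.166). Aurka, the kinase of the spindle poles, gave -0.19 (SE 0.11, adjusted p = 0.172) and Plk1, the Polo kinase of mitotic entry, -0.25 (SE 0.15, adjusted p = 0.199). Bub1b stood alone near 0, at -0.01 (SE 0.12, adjusted p = 0.941) with a 95% interval of -0.27 to 0.24.

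Of the 8 spindle genes, 6 were lower in females. Cenpf, a kinetochore protein, ran from 0.371 through a median of 1.25 to 1.98 CPM in the 16 females and from 1.17 through 2.08 to 3.69 CPM in the 12 males, with -0.78 (SE 0.20, adjusted p = 0.00248). Kif11, the kinesin that pushes spindle poles apart, ran from 0.824 through a median of 1.54 to 2.66 CPM in the 16 females and from 1.49 through 2.197 to 3.33 CPM in the 12 males, with -0.55 (SE 0.15, adjusted p = 0.00676). Tpx2, which nucleates spindle microtubules, ran from 1.34 through a median of 2.18 to 3.38 CPM in the 16 females and from 1.899 through 2.98 to 4.12 CPM in the 12 males, with -0.44 (SE 0.14, adjusted p = 0.0121). Most females lay below the male median for these spindle genes too, and for Cenpf every female did. Nusap1, which bundles spindle microtubules, ran from 1.34 through a median of 2.52 to 3.21 CPM in the 16 females and from 2.86 through 3.13 to 4.26 CPM in the 12 males, with -0.43 (SE 0.10, adjusted p = 0.00138). Prc1, which bundles the midzone, ran from 3.35 through a median of 3.88 to 5.14 CPM in the 16 females and from 3.74 through 5.05 to 6.95 CPM in the 12 males, with -0.36 (SE 0.09, adjusted p = 0.00238). Kif2c gave -0.78 (SE 0.25, adjusted p = 0.0154). Cenpe, the kinesin of the kinetochore, gave -0.31 (SE 0.12, adjusted p = 0.0508) and Kif20a, a kinesin of cytokinesis, -0.16 (SE 0.08, adjusted p = 0.129).

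Of the S phase members, Rrm2, the regulated subunit of ribonucleotide reductase, ran from 0.453 through a median of 0.985 to 2.24 CPM in the 16 females and from 0.913 through 1.58 to 3.33 CPM in the 12 males, with -0.74 (SE 0.16, adjusted p = 0.000735). Mcm6 had the smallest adjusted p of all members, but its difference of -0.26 (SE 0.05, adjusted p = 0.000177) was below the fold threshold; it ran from 12.2 through a median of 13.98 to 17.1 CPM in the 16 females and from 13.6 through 17.4 to 18.5 CPM in the 12 males. Pcna ran from 26.9 through a median of 30.3 to 38.4 CPM in the 16 females and from 29.1 through 31.2 to 35.3 CPM in the 12 males, with -0.07 (SE 0.04, adjusted p = 0.194). The 5 other Mcm genes and Tyms lay between -0.07 and 0.05, and their 95% intervals stayed within -0.20 and 0.17. Mcm5, for instance, ran from 8.903 through a median of 9.73 to 13.1 CPM in the 16 females and from 8.57 through 9.87 to 11.5 CPM in the 12 males, with 0.04 (SE 0.06, adjusted p = 0.641). E2f1 ran from 2.68 through a median of 3.6 to 6.005 CPM in the 16 females and from 3.06 through 4.55 to 5.87 CPM in the 12 males, with -0.16 (SE 0.10, adjusted p = 0.228), and Foxm1, the factor that switches on mitosis genes, gave -0.10 (SE 0.11, adjusted p = 0.487).

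**Figure D3:**
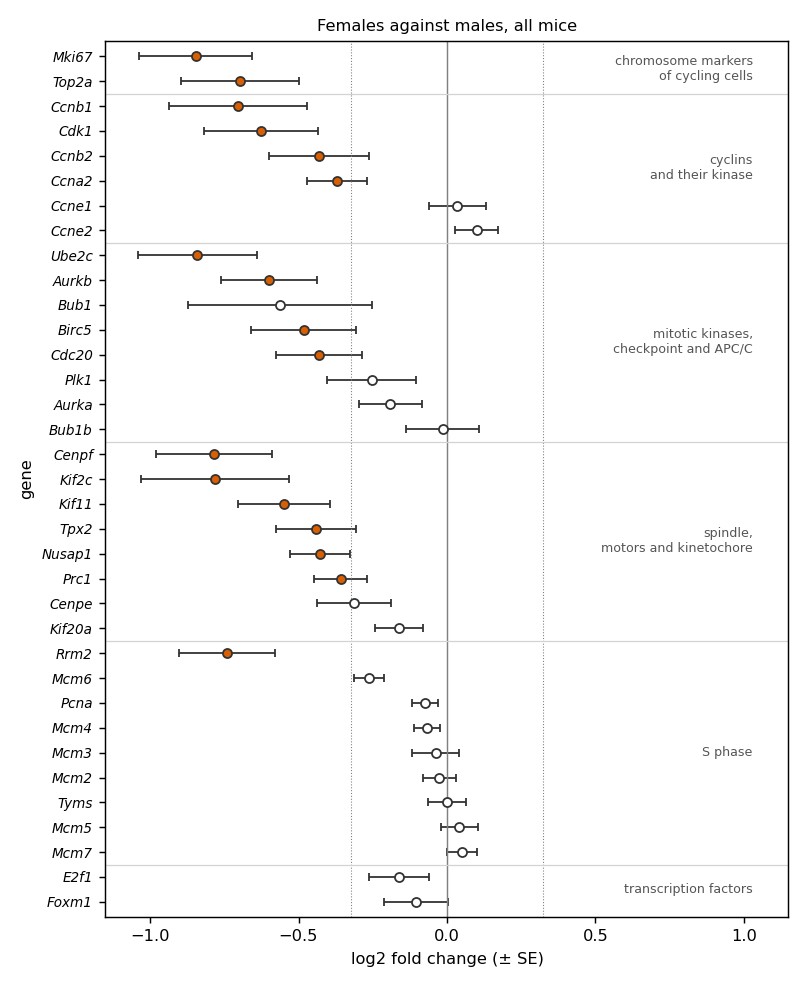
Log2 fold change of females against males for each member (rows, by role) in the model of all 28 mice; points are estimates, bars are ± 1 SE, filled points passed the adjusted p and fold thresholds, and dotted lines mark the fold threshold. The 17 filled points all lie left of 0 and 16 of them are mitosis genes, while the Mcm genes other than Mcm6, and Tyms, Ccne1 and Bub1b, lie close to 0.

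Mitosis members were lower on average in females within each treatment too. The mean CPM was lower in females for 21 of 22 mitosis members in controls and for all 22 in each of the other treatments. For S phase members it was lower in 4 of 9 in controls, 4 of 9 after restraint, 8 of 9 after PSD and 9 of 9 after PSD+restraint. With controls only, 4 females against 4 males, no member was called, beside 10.7% of all genes. In that comparison 27 of 35 members had a negative log2 fold change, with a median of -0.22 and a median of -0.36 over the mitosis members (-0.21 without PHN-101f). An unadjusted p under 0.05 was found for 6 members, all lower in females, beside 27.8% of all genes, and DESeq2 called none. Ube2c came nearest with -1.07 (SE 0.40, adjusted p = 0.0714), then Ccnb1 with -1.03 (SE 0.43, adjusted p = 0.113) and Mcm6 with -0.22 (SE 0.09, adjusted p = 0.123). In controls Ube2c was at 0.3297, 0.724, 0.5698 and 0.741 CPM in females and 1.29, 1.47, 1.07 and 1.01 in males. Ube2c, E2f1, Ccna2 and Mki67 were lower in every female control than in every male control, that is 4 of 35 members beside 9.27% of all genes. Ube2c was called when the model held the 8 controls alone (-1.07, adjusted p = 0.0306).

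Other genes of the same pathways were listed by function. Of 50 other mitosis genes tested, 20 were lower in females and 2 higher, beside 7.79% and 7.11% of all genes; the other lists are read against the same shares. The 3 with the smallest p were Racgap1, which organises the cytokinesis furrow, at -0.67 (SE 0.10, adjusted p = 6.12e-06), Espl1, the separase, at -0.61 (SE 0.13, adjusted p = 0.000486), and Cdc25c, the phosphatase that activates Cdk1, at -0.89 (SE 0.20, adjusted p = 0.000952). The 2 that were higher in females were Kif18a, a kinesin that aligns chromosomes, at 0.63 (SE 0.14, adjusted p = 0.000651), and Ccnf, an F-box cyclin, at 0.43 (SE 0.11, adjusted p = 0.00374). Of 41 other S phase genes 2 were lower, Uhrf1, which maintains DNA methylation, at -0.46 (SE 0.12, adjusted p = 0.00543) and Pole, a replicative polymerase, at -0.33 (SE 0.10, adjusted p = 0.00791). Of 9 G1 entry genes 2 were higher in females, Myc at 1.55 (SE 0.20, adjusted p = 1.06e-06) and Mycn at 0.53 (SE 0.13, adjusted p = 0.00197), both growth-promoting transcription factors. Of 18 cell cycle inhibitors, Btg1 was lower at -0.39 (SE 0.07, adjusted p = 5.86e-05). The direction in Myc and Mycn was thus opposite to that of the mitosis genes in the same mice.

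Cell type markers differed between the sexes as well. The CPM summed over 4 lactotrope markers ran from 97070 to 231976 in females and from 31130 to 46076 in males, and that over 4 somatotrope markers from 61006 to 123485 in females and from 110883 to 227805 in males. Called markers were Prl and Drd2 (higher in females) of 3 lactotrope markers tested, Gh and Ghrhr (lower) of 4 somatotrope markers, Lhb and Fshb (lower) and Foxl2 (higher) of 5 gonadotrope markers, and Tshb, Trhr and Gata2 (lower) of 4 thyrotrope markers. Pax7 was higher of 5 corticotrope and melanotrope markers, and Sox9 and Cdh26 were higher of 6 stem and folliculostellate markers, whose sum ran from 105 to 167 CPM in females and from 110 to 146 CPM in males. Smaller lists gave Oxt (higher) of 6 posterior lobe markers, Cd3e (higher) and Cd79a (lower) among the lymphocyte markers, Alas2 (lower) of 3 red cell markers and Slc17a7 (higher) of 5 forebrain markers. None of the endothelial, macrophage or pericyte markers was called. In controls only, the called markers were Gh, Ghrhr, Lhb, Fshb, Gata2, Pecam1, Emcn and Rgs5 (lower in females) and Prl and Foxl2 (higher). The part of these cell types in the sex difference of the proliferation genes was not tested.

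The second question was whether sleep deprivation, restraint or both moved these genes. After PSD, with both sexes in 1 model, all 22 mitosis members had a positive log2 fold change, with a median of 0.30, against 4 of 9 S phase members with a median of -0.002 and a median of 0.01 over all genes. Only Rrm2 was called of 35 members (2.86%), beside 0.671% of all genes in either direction and 0.565% higher. An unadjusted p under 0.05 was found for 8 members (7 higher, 1 lower), beside 17.6% of all genes. Within each sex the 22 mitosis members were also all positive, with medians of 0.24 in females and 0.31 in males, and no member was called in either (beside 0.0277% and 0.00547% of all genes), with an unadjusted p under 0.05 for 2 and 6 members, beside 19.8% and 8.85% of all genes. DESeq2 called none in females and Bub1b in males (0.46, adjusted p = 0.0467). These medians rest on few mice: without PHN-101f the female median was 0.10, with 15 of 22 positive, without PPN-103m the male median was 0.16, with 19 of 22 positive, and without PPN-102m it was 0.20, with 20 of 22. The female median was 0.40 without PHN-104f and the male one 0.54 without PPN-101m. With both sexes Mki67 gave 0.38 (SE 0.26, adjusted p = 0.461), Top2a 0.33 (SE 0.27, adjusted p = 0.542), Cdk1 0.57 (SE 0.26, adjusted p = 0.243) and Ccnb1 0.61 (SE 0.31, adjusted p = 0.296), while Pcna gave -0.05 (SE 0.06, adjusted p = 0.678), Mcm5 -0.05 (SE 0.08, adjusted p = 0.815), Ccne1 0.18 (SE 0.13, adjusted p = 0.473) and E2f1 0.30 (SE 0.14, adjusted p = 0.245). Comparisons with control share the same 8 control mice, so their values are given side by side and not as independent evidence.

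Rrm2 had the largest log2 fold change of all members after PSD and after PSD+restraint with both sexes. In females, Rrm2 was at 0.453, 0.905, 0.627 and 1.17 CPM in controls, 0.785, 0.569, 0.779 and 0.712 after restraint, 1.56, 2.24, 1.24 and 1.25 after PSD and 1.79, 1.796, 1.07 and 0.855 after PSD+restraint. In males, Rrm2 was at 0.913, 1.17, 1.17 and 1.54 CPM in controls, 1.72 and 1.55 after restraint, 1.27, 2.47 and 2.79 after PSD and 2.01, 3.33 and 1.61 after PSD+restraint. Every female PSD mouse lay above every female control, whereas among males PPN-101m lay within the controls. Its log2 fold change after PSD was 0.95 (SE 0.22, adjusted p = 0.0403) with both sexes, 1.01 (SE 0.32, adjusted p = 0.136) in females and 0.88 (SE 0.29, adjusted p = 0.423) in males. After PSD+restraint it was 0.91 (SE 0.22, adjusted p = 0.00868) with both sexes, 0.83 (SE 0.31, adjusted p = 0.153) in females and 0.98 (SE 0.30, adjusted p = 0.113) in males. The call after PSD rests on few mice: it was lost without any 1 of 10 of the 15 mice compared (PPN-101f, PPN-102f, PPN-103f, PHN-102f, PHN-103f, PPN-102m, PPN-103m, PHN-101m, PHN-102m and PHN-103m), with the highest adjusted p, 0.0967, without PPN-102f, and also without both libraries that stood apart (0.86, adjusted p = 0.102) and with only the groups compared in the model (0.94, adjusted p = 0.0919). The call after PSD+restraint with both sexes was kept in every alternative run. The summed CPM of corticotrope and melanotrope markers also lay higher after PSD, above all controls of the same sex. It ran from 71480 to 167399 CPM in females and from 67064 to 103364 in males. None of these markers was called after PSD with both sexes. In males Pomc gave 0.86 (SE 0.43, adjusted p = 0.598), Pcsk2 0.83 (SE 0.39, adjusted p = 0.572) and Tbx19 1.02e-05 (SE 0.21). The part of these markers in the value of Rrm2 was not tested.

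In females after PSD the next members by p were E2f1, at 0.48 (SE 0.20, adjusted p = 0.208), and Ccnb1, at 0.97 (SE 0.47, adjusted p = 0.265). In males after PSD they were Bub1b, at 0.75 (SE 0.20, adjusted p = 0.288), Rrm2, and Aurka, at 0.49 (SE 0.16, adjusted p = 0.425), while the largest difference was that of Bub1, 0.95 (SE 0.41, adjusted p = 0.533). Groups were fully apart for Rrm2, Cdk1 and Ube2c in females (higher, 3 of 35 beside 3.83% of all genes) and for Bub1b, Aurka and Mcm2 in males (higher, 3 of 35 beside 4.69%), and Ccne2 was fully apart in males too (lower, 1 of 35 beside 5.73%).

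After PSD+restraint 3 of 35 members were called with both sexes (8.57%), beside 5.46% of all genes: Rrm2 and Bub1b were higher (4.1% of all genes) and Mcm7 was lower (1.35%). A positive log2 fold change was found for 21 of 22 mitosis members and 4 of 9 S phase members, with medians of 0.29 and -0.003. In females Mcm7 alone was called, lower (2.2% of all genes called, 0.67% lower), and in males Bub1b alone, higher (2.56% called, 1.92% higher). Groups were fully apart for Mcm7 and Mcm3 in females (lower, 2 of 35 beside 7.56% of all genes), and in males for Bub1b, Rrm2, Bub1, Kif2c, Prc1 and Kif11 (higher, 6 of 35 beside 6.97%) and Mcm7 (lower, 1 of 35 beside 8.13%). For the cycling markers the differences were within the spread: Mki67 gave 0.39 (SE 0.26, adjusted p = 0.363), Top2a 0.23 (SE 0.27, adjusted p = 0.656), Cdk1 0.53 (SE 0.26, adjusted p = 0.204) and Ccnb1 0.38 (SE 0.31, adjusted p = 0.487). Pcna gave 0.14 (SE 0.06, adjusted p = 0.122), Mcm5 -0.14 (SE 0.08, adjusted p = 0.292), Ccne1 -0.04 (SE 0.13, adjusted p = 0.889) and E2f1 0.34 (SE 0.14, adjusted p = 0.112).

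Mcm7, a subunit of the replicative helicase, was lower after PSD+restraint. In females, Mcm7 was at 26.8, 27.4, 26.1 and 28.2 CPM in controls, 22.9, 19.2, 24.6 and 24.2 after restraint, 25.6, 27.1, 21.2 and 24.3 after PSD and 17.4, 20.2, 22.4 and 21.05 after PSD+restraint. In males, Mcm7 was at 22.7, 23.01, 24.2 and 26.7 CPM in controls, 24.7 and 20.9 after restraint, 21.8, 26.2 and 25.0 after PSD and 19.3, 22.4 and 19.7 after PSD+restraint. All 7 PSD+restraint mice lay below all 8 controls, as 0.929% of all genes did, with the nearest values at 22.4 and 22.7 CPM. The log2 fold change was -0.33 (SE 0.07, adjusted p = 0.00199) with both sexes, -0.41 (SE 0.09, adjusted p = 0.0288) in females and -0.24 (SE 0.10, adjusted p = 0.219) in males, and the other Mcm genes lay between -0.21 and 0.07 with both sexes. After restraint alone it was -0.18 (SE 0.07, adjusted p = 0.287) and after PSD alone -0.07 (SE 0.07, adjusted p = 0.642). Its difference sat at the fold threshold, so that the call, but not the direction, was lost without any 1 of 6 mice (PPR-101f, PPR-102f, PHN-102f, PHN-104f, PPR-101m and PHN-104m; -0.30 without PPR-101f). DESeq2 gave -0.30 as well, and the call was also lost with a mean CPM of at least 1 (-0.32). In females the call was lost without any 1 of 4 (PPR-101f, PPR-102f, PHN-102f and PHN-104f), with the highest adjusted p, 0.101, without PPR-101f.

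Bub1b, the checkpoint kinase that delays anaphase, was higher after PSD+restraint. In females, Bub1b was at 6.41, 2.85, 5.93 and 3.85 CPM in controls, 4.12, 6.12, 6.56 and 3.46 after restraint, 5.92, 5.896, 5.87 and 4.52 after PSD and 6.19, 6.51, 7.37 and 5.24 after PSD+restraint. In males, Bub1b was at 4.71, 3.67, 4.296 and 2.76 CPM in controls, 5.44 and 5.33 after restraint, 5.92, 5.66 and 7.77 after PSD and 7.23, 8.37 and 5.15 after PSD+restraint. In males all PSD+restraint mice lay above all controls, whereas in females controls PHN-101f and PHN-103f lay within the range of PSD+restraint. The log2 fold change was 0.62 (SE 0.17, adjusted p = 0.0171) with both sexes, 0.86 (SE 0.20, adjusted p = 0.0384) in males and 0.41 (SE 0.24, adjusted p = 0.347) in females. The female response minus the male response was -0.45 (SE 0.33, adjusted p = 0.809), with a 95% interval of -1.14 to 0.24. Without PPR-102m the call with both sexes was lost (0.54, adjusted p = 0.0529), and the call in males was lost without any 1 of 5 of 7 mice (PPR-101m, PPR-102m, PHN-102m, PHN-103m and PHN-104m), with the highest adjusted p, 0.179, without PPR-102m, and with only the groups compared (0.86, adjusted p = 0.0802). Rrm2 and Bub1b were higher after PSD+restraint, and Mcm7 lower, in glands whose summed corticotrope and melanotrope markers were also higher.

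**Figure D4:**
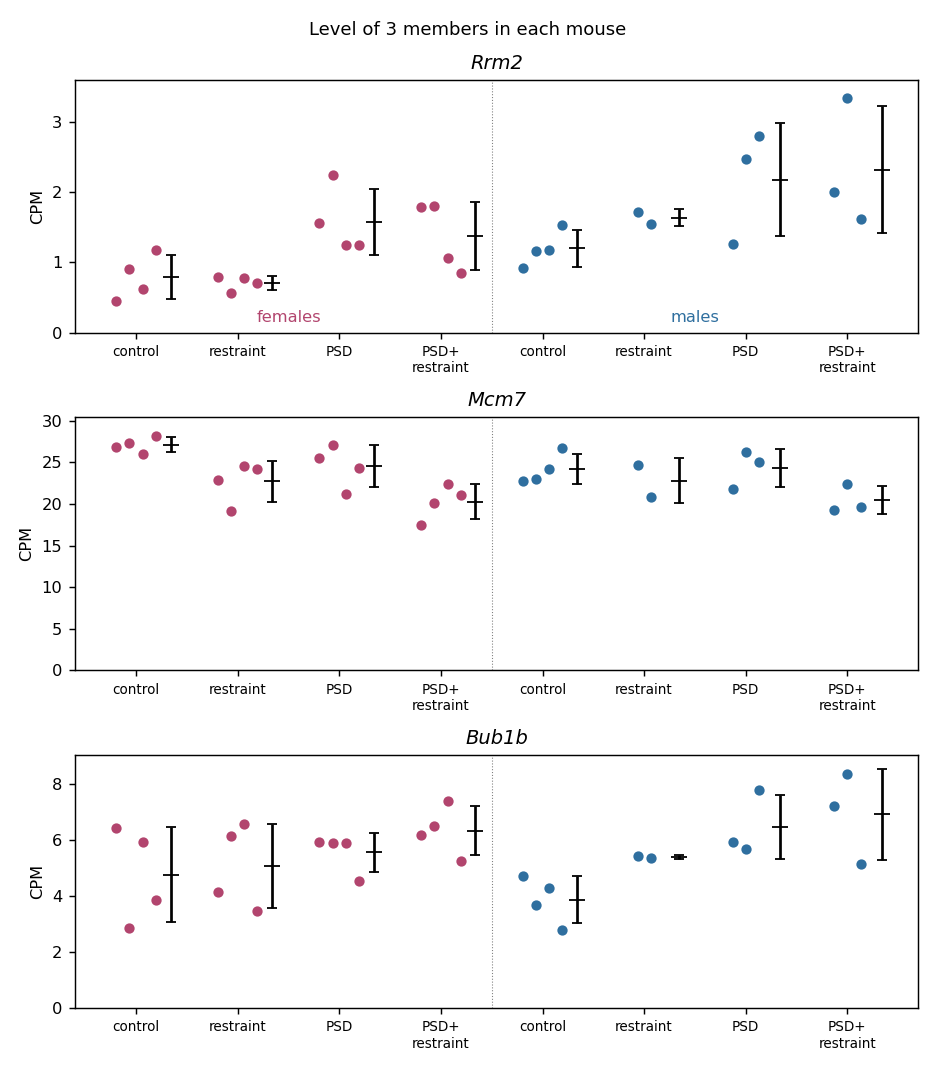
CPM of Rrm2, Mcm7 and Bub1b in each of the 28 mice by treatment group (females left, males right); points are mice and the bar beside them is the mean ± SD. All 7 PSD+restraint mice lie below all 8 controls for Mcm7. For Rrm2 and Bub1b the male PSD+restraint mice lie above all male controls, while the female ones overlap with the female controls.

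Those markers moved as follows. The CPM summed over 5 corticotrope and melanotrope markers ran from 37375 to 69352 in female controls and from 71668 to 103348 after PSD+restraint, and from 11744 to 64737 in male controls and from 67470 to 128365 after PSD+restraint. Pomc, at 0.99 (SE 0.27, adjusted p = 0.0157), and Pcsk2, at 0.996 (SE 0.25, adjusted p = 0.00926), were called of the 5. Tbx19, Crhr1 and Pax7 were not called. The sum adds CPM unscaled, so the most abundant marker weighs most in it. Cd68 was called of 6 macrophage markers, at 0.40 (SE 0.09, adjusted p = 0.00276), and Acta2 of 4 pericyte and smooth muscle markers, at 0.95 (SE 0.15, adjusted p = 0.000106); Acta2 was also the single marker called after PSD, at 0.61 (SE 0.15, adjusted p = 0.048). In females alone C1qa, a macrophage marker, was called besides Cd68 and Acta2, and in males Acta2 alone. The part of these cell types in the values of Rrm2, Bub1b and Mcm7 was not tested. Without PHN-101m and PPN-101f all 3 remained called after PSD+restraint.

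Restraint alone moved none of the 35 members past the thresholds with both sexes, in females or in males, beside 1.14%, 0.543% and 0.296% of all genes; an unadjusted p under 0.05 was found for 2 members in each of the 3, beside 10.3%, 9.77% and 5.07% of all genes, and DESeq2 called none either. Groups were fully apart for Ccne2 and Mcm7 in females (lower, 2 of 35 beside 3.17% of all genes) and, with only 2 restrained mice, in males for Bub1b, Kif11, Rrm2, Tpx2, Nusap1, Mcm6 and Top2a (higher, 7 of 35 beside 6.34%) and E2f1 (lower, 1 of 35 beside 6.89%). No cell type marker was called after restraint. With both sexes, the members with the smallest p were Ccne2, at -0.28 (SE 0.10, adjusted p = 0.222), Mcm7 and Bub1b, at 0.26 (SE 0.17, adjusted p = 0.691), and the largest difference was that of Bub1, at 0.49 (SE 0.44, adjusted p = 0.817). Mki67 gave -0.07 (SE 0.27, adjusted p = 0.975), Top2a 0.01 (SE 0.28, adjusted p = 0.997), Cdk1 -0.03 (SE 0.28, adjusted p = 0.989) and Ccnb1 -0.23 (SE 0.34, adjusted p = 0.921), and Pcna 0.08 (SE 0.06, adjusted p = 0.771), Mcm5 -0.04 (SE 0.09, adjusted p = 0.953), Ccne1 -0.03 (SE 0.13, adjusted p = 0.978) and E2f1 -0.10 (SE 0.14, adjusted p = 0.922). For Cdk1 the 95% interval of -0.60 to 0.54 does not show that it stayed the same. In females Ccne2 gave -0.36 (SE 0.13, adjusted p = 0.321), Mcm7 -0.25 (SE 0.09, adjusted p = 0.352) and Mcm3 -0.16 (SE 0.13, adjusted p = 0.76), and Kif2c had the largest difference, 0.61 (SE 0.56, adjusted p = 0.818). In males, with 2 restrained mice, E2f1 gave -0.46 (SE 0.18, adjusted p = 0.859), Bub1b 0.48 (SE 0.22, adjusted p = 0.98) and Ccnb1 -0.72 (SE 0.46, adjusted p = 1).

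**Figure D5:**
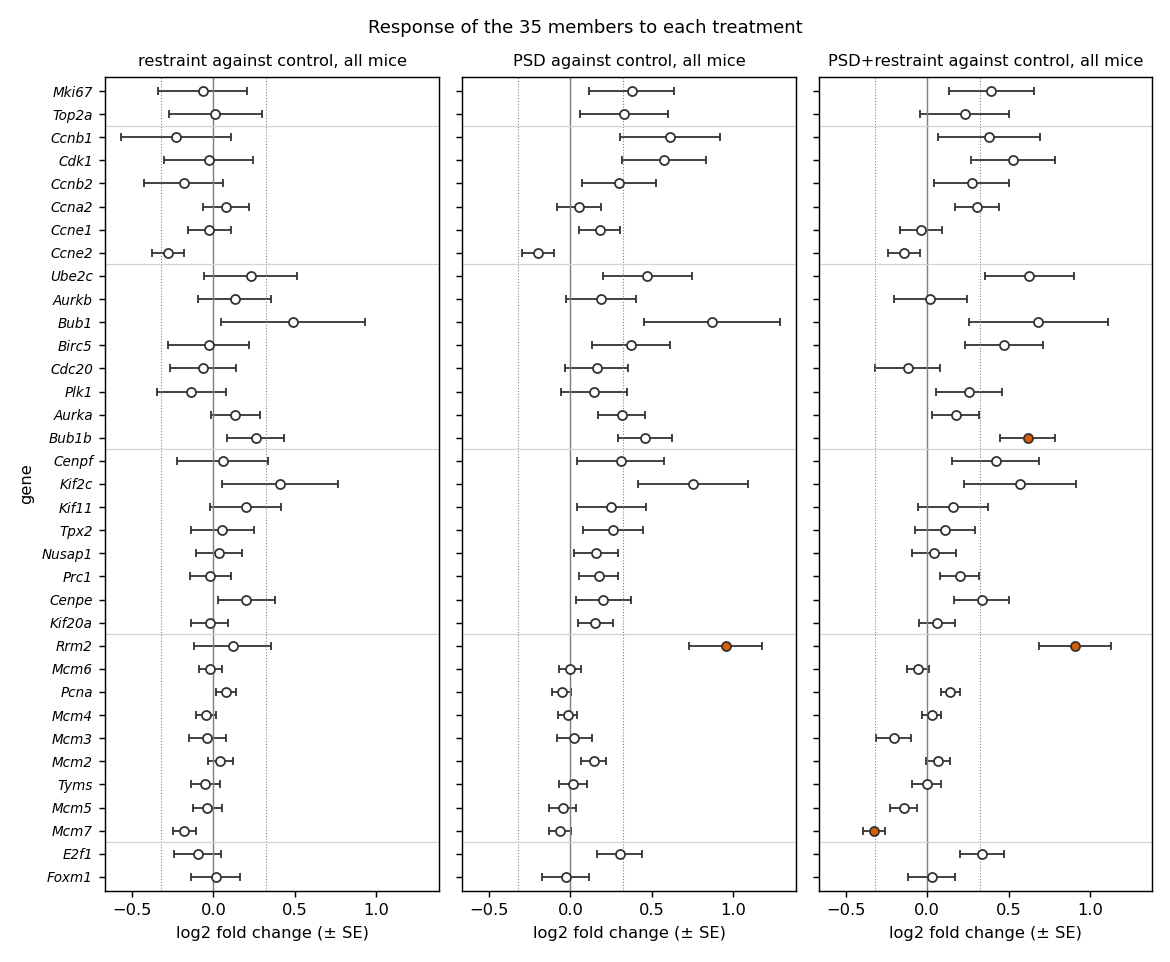
Log2 fold change after restraint, PSD and PSD+restraint against control for each member (rows, by role) in the model of all 28 mice; points are estimates, bars ± 1 SE, filled points passed both thresholds and dotted lines mark the fold threshold. After PSD all 22 mitosis members lie right of 0 with wide bars and only Rrm2 is filled, after PSD+restraint Rrm2, Bub1b and Mcm7 are filled, and after restraint none.

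The comparisons among stressed mice added no call. PSD+restraint against restraint called none of 35 members, beside 0.0951% of all genes, with 3 unadjusted p under 0.05 (13.5% of all genes) and none by DESeq2. Rrm2 gave 0.79 (SE 0.24, adjusted p = 0.199), E2f1 0.43 (SE 0.15, adjusted p = 0.221) and Mcm7 -0.15 (SE 0.07, adjusted p = 0.369). PSD+restraint against PSD also called none, beside 2.01% of all genes, with 2 unadjusted p under 0.05 (13.8% of all genes) and none by DESeq2. Mcm7 passed the adjusted p but not the fold, at -0.26 (SE 0.07, adjusted p = 0.0334), Pcna gave 0.19 (SE 0.06, adjusted p = 0.0863), Mcm3 -0.23 (SE 0.11, adjusted p = 0.368) and Cdc20, the largest difference, -0.28 (SE 0.21, adjusted p = 0.626). Called markers were Cd68 and Acta2 (higher) against restraint and Lhb (higher) against PSD. The interaction of PSD and restraint called no member and no gene at all by edgeR, with an unadjusted p under 0.05 for 1 member and 743 genes (3.92%). That member was Ccne2, at 0.33 (SE 0.14, adjusted p = 1), followed by Pcna at 0.12 (SE 0.09, adjusted p = 1) and Aurka at -0.28 (SE 0.21, adjusted p = 1), and the largest difference was that of Bub1, at -0.68 (SE 0.62, adjusted p = 1).

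Responses of females and males were compared directly in the model with 1 mean per group. No member and no gene differed in the response to restraint, PSD or PSD+restraint by edgeR, and DESeq2 called no member. An unadjusted p under 0.05 was found for 1, 0 and 0 members, beside 4.25%, 10.8% and 7.2% of all genes. For restraint the 3 smallest p were those of E2f1, at 0.60 (SE 0.29, adjusted p = 1), Mcm3, at -0.29 (SE 0.22, adjusted p = 1), and Mcm6, at -0.19 (SE 0.15, adjusted p = 1), and Ccnb1 had the largest difference, 0.84 (SE 0.70, adjusted p = 1). For PSD they were Mcm3, at -0.40 (SE 0.21, adjusted p = 0.5), Foxm1, at -0.47 (SE 0.27, adjusted p = 0.542), and Ccne1, at 0.41 (SE 0.25, adjusted p = 0.575), and the largest was again Ccnb1, at 0.65 (SE 0.62, adjusted p = 0.74). For PSD+restraint they were Prc1, at -0.47 (SE 0.24, adjusted p = 0.701), Mcm5, at -0.30 (SE 0.17, adjusted p = 0.731), and Bub1, which also had the largest difference, -1.27 (SE 0.86, adjusted p = 0.789). The intervals are wide: for Mki67 after PSD+restraint that of the female minus the male response was -1.37 to 0.88 on the log2 scale.

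Of 50 other mitosis genes tested after PSD+restraint with both sexes, 3 were higher, a share near the 4.1% of all genes, and none lower: Kif18a at 1.35 (SE 0.18, adjusted p = 1.11e-05), Kif23, a kinesin of the midzone, at 0.52 (SE 0.16, adjusted p = 0.0346), and Mybl2, a partner of the complex at the CHR, at 0.43 (SE 0.11, adjusted p = 0.0102). In females, Kif18a was at 7.75, 6.695, 6.87 and 6.47 CPM in controls, 15.1, 19.01, 6.07 and 15.4 after restraint, 6.54, 8.08, 7.01 and 6.09 after PSD and 20.5, 12.2, 16.5 and 14.4 after PSD+restraint. In males, Kif18a was at 2.89, 4.76, 3.83 and 4.73 CPM in controls, 5.88 and 6.65 after restraint, 5.98, 5.05 and 6.46 after PSD and 12.6, 13.2 and 9.05 after PSD+restraint. Kif18a was higher in every PSD+restraint mouse than in every control of the same sex, and the female restraint mice other than PHR-103f lay above the female controls too. It gave 0.93 (SE 0.19, adjusted p = 0.00486) after restraint, where it was the single mitosis gene called of the 50 (beside 0.935% of all genes higher), and 1.10 (SE 0.19, adjusted p = 0.000643) in PSD+restraint against PSD. Of 41 other S phase genes, 3 were lower after PSD+restraint (beside 1.35% of all genes) and 1 higher. Rpa2, which binds single-stranded DNA, was at -0.35 (SE 0.06, adjusted p = 0.000167), Ung, which removes uracil, at -0.44 (SE 0.08, adjusted p = 0.000698), and Fen1, which trims DNA flaps, at -0.36 (SE 0.10, adjusted p = 0.0233). Rfc3, which helps to load Pcna, was higher, at 0.36 (SE 0.07, adjusted p = 0.00214). After PSD alone none of the 50, the 41, the 9 G1 entry genes or the 18 inhibitors was called.

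Among the growth regulators Mycn was lower after restraint, at -0.70 (SE 0.18, adjusted p = 0.0428), and after PSD+restraint, at -0.97 (SE 0.18, adjusted p = 0.000576), the single one called of 9 G1 entry genes in each (beside 0.206% and 1.35% of all genes lower). Of 18 cell cycle inhibitors, Btg2, an early antiproliferative gene, was higher after restraint, at 0.86 (SE 0.21, adjusted p = 0.0276), and after PSD+restraint, at 0.71 (SE 0.20, adjusted p = 0.0237). Cdkn1a, the kinase inhibitor p21, was higher after PSD+restraint at 0.45 (SE 0.12, adjusted p = 0.0162), and Ccng2, a cyclin that restrains the cycle, was lower at -0.43 (SE 0.12, adjusted p = 0.0162). In males alone Btg2 gave 1.41 (SE 0.24, adjusted p = 0.0269) after restraint. In PSD+restraint against PSD, Gadd45a was higher at 0.38 (SE 0.09, adjusted p = 0.0151) and Ccng2 lower at -0.44 (SE 0.12, adjusted p = 0.0419). Within females PSD+restraint also called Kif18a (1.19, SE 0.25, adjusted p = 0.0173) and Mycn, Fen1, Rpa2, Ung and Cdc25a (lower), and within males Kif18a (1.53, SE 0.18, adjusted p = 0.00101), Rfc3, Btg2 and Gadd45a (higher) and Mycn (lower).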

How the data were processed

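Per the labels and the study's methods, the authors aligned paired reads of stranded mRNA libraries to mm10 with MapSplice and made the deposited counts (whole reads per gene of UCSC models, not normalized) with HTSeq 0.9.1; a second table of counts divided by a factor per mouse was not used. Samples were grouped by the labels' sex and treatment. The counts were tested with edgeR 4.0.16 (R 4.3.3): filterByExpr by group, TMM factors, glmQLFit and glmQLFTest, with Benjamini-Hochberg adjustment over all genes tested. Females and males were fitted with PSD, restraint and their interaction, all mice with sex added, and differences between the sexes with 1 mean per group. A gene was called where its adjusted p did not exceed 0.05 and its log2 fold change reached 0.32 in either direction. CPM used TMM factors; RPKM used mean transcript lengths of the GRCm38 annotation. Values in every mouse were fixed for 8 genes and for called members (beyond 12, those with the smallest p); otherwise the 3 smallest p and the largest difference were named. The fits were checked on simulated counts, with changes placed only in well-counted genes and the same spread for every gene. That check does not cover members with few reads. Members and lists were chosen with earlier results of these data known. Alternatives were DESeq2 1.42.0 (the authors' tool, version 1.16.1), DESeq2 size factors, 2 filters, no fold threshold, only the groups compared, a replicate block, leaving out each mouse and, added after the data were seen, leaving out 2 libraries. The mouse numbers shared by groups were not taken as pairs. Deviations of same-numbered mice correlated over 0.1 in 10 of 87 pairs, with a median of 0.0024 and a highest value of 0.399. The best correlate in another group had the same number for 6 of 28 mice. Whether the numbers mark a shared batch was not tested. In each of the 37 pairs of mice within groups the counts differed beyond sampling noise (chi-square per degree of freedom at least 6.43). Promoters were taken from RefSeq. One of the lymphocyte markers is not reported here.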

Additional observations from a re-analysis of the deposited data

Results flagged for a closer look

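In 8 of 175 combinations of a group and a member (4.57%), 1 mouse lay far from the other 3 of its group, where chance gives about 1 in 20. Only groups of 4 mice were examined, that is the 4 female groups and male controls, and the 8 were in female groups. PHR-103f was highest after restraint for 3 genes, with Nusap1 at 3.21 CPM (the others from 2.08 to 2.13), Cdc20 at 2.86 (1.24 to 1.39) and E2f1 at 4.74 (3.22 to 3.48). Among controls, PHN-104f had Cdc20 at 2.59 (1.71 to 1.79). After PSD, PPN-102f had Plk1 at 1.86 (0.799 to 0.945), PPN-103f had Aurka at 2.29 (1.69 to 1.77), and PPN-104f had Bub1b at 4.52, below the others at 5.87 to 5.92. After PSD+restraint, PPR-101f had Cenpe at 2.46 (1.34 to 1.45).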

How the results depend on the processing

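Recomputed counts of called members stayed within 1.5 times in 329 cases and moved in 28, and no result reversed. Most comparisons had no member called. There a count of 0 that stays 0 falls within the rule, so the tally does not measure how stable a call is. In females after PSD+restraint the count of 1 (Mcm7) became 0 with the replicate block and ran from 0 to 1 without each mouse. In males after PSD+restraint the count of 1 (Bub1b) became 0 with the block and with only the groups compared, and ran from 0 to 1 without each mouse. After PSD with both sexes the count of 1 (Rrm2) became 0 with the block, with only the groups compared and without both libraries that stood apart, and ran from 0 to 1 without each mouse. DESeq2 called 1 member, Bub1b, after PSD in males (0.46 after shrinkage, adjusted p = 0.0467), only the groups compared gave 1 (Ube2c) between control females and males, and no fold threshold gave 1 (Mcm7) in PSD+restraint against PSD. The replicate block also took Mcm7 with both sexes just short of the fold threshold (-0.32) and left the 17 calls by sex. Mouse numbers were not taken as pairs in the main models. The count by sex was 13 with a mean CPM of at least 1, a filter that removed Ccnb1, Aurkb, Birc5 and Kif2c, and ran from 14 to 18 without each mouse; Ccnb2 lost its call with DESeq2 size factors, with no filter, without both libraries that stood apart and without any 1 of 18 mice, Birc5 of 7 and Cdc20 of 2. The median of the members by sex ran from -0.40 to -0.32 without each mouse; after PSD in females it ran from 0.01 to 0.20. Groups of 2 or 3 stressed males, and single-mouse counts as low as 2 or 3 for Kif2c, Ccnb1 and Bub1, limit what single genes can show.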
